A study of Schizosaccharomyces pombe with 6 samples.

Results

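The genes described here encode the proteins that start and end the synthesis of a polypeptide in fission yeast (Schizosaccharomyces pombe). They were the rows of a count table whose gene has a standard name of tif followed by digits, without tif512 and tif6, plus sui1, sum1, int6, moe1, eif21, sup35 and sup45. This gave 31 of the 6952 genes in the table. Of these, 28 encode initiation factors (eIF), 2 encode the release factors eRF1 (sup45) and eRF3 (sup35), and tif51 encodes eIF5A, which RefSeq annotates as an elongation factor and which was kept because its name matches.

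RNA was sequenced from 6 cultures that had spent 6 days in stationary phase, the non-dividing state in which chronological ageing is followed. Both groups had the 972h-/leu1-32 background, carried a plasmid and were grown in the minimal medium EMMG. In the 3 aal1-pOE cultures the long non-coding RNA aal1 was transcribed from the plasmid by P41nmt1, a promoter of medium strength that thiamine represses, and the 3 evc cultures carried the empty vector. The aal1 insert is ectopic, so these cells held it beside the chromosomal gene, and the labels call the replicates biological. The comparison addressed how factor transcripts differ in non-dividing cells that receive excess aal1.

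To start translation, eIF1, eIF1A and eIF3 prepare the small ribosomal subunit, while eIF2 brings the initiator tRNA with GTP. The guanine nucleotide exchange factor eIF2B reloads eIF2 with GTP, and phosphorylation of the alpha subunit of eIF2 under stress blocks that step. The cap of the mRNA is bound by eIF4E, which the scaffold eIF4G joins to the RNA helicase eIF4A. After eIF5 and eIF5B have completed the ribosome and the coding sequence has been read, eRF1 recognises the stop codon and the GTPase eRF3 assists release of the chain.

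The count table held whole-number counts, and library totals ranged from 5839863 to 13164975. The overexpressed aal1 was counted 54, 141 and 58 times in replicates 1, 2 and 3 of aal1-pOE against 4, 2 and 4 times in those of evc. Libraries of a group did not all resemble each other. The correlation of log CPM (counts per 1000000 counts of the library) with aal1-pOE replicate 2 was 0.919 for replicate 1 and 0.894 for replicate 3, against 0.984 between replicates 1 and 3. Cytosolic ribosomal protein genes took 3.23%, 3.91% and 2.83% of counts in aal1-pOE against 6.94%, 11.4% and 11.6% in evc, so evc replicate 1 stood apart as well. TMM factors, which correct a library's total for its composition, ran from 1.04 to 1.80 in aal1-pOE and from 0.763 to 0.850 in evc. The median log2 fold change (log2FC, aal1-pOE over evc) of all 5823 genes tested was 0.08 with TMM and 0.80 when library totals alone set the scale, and values of the factor genes are to be read against that shift. Relative counts also cannot tell apart less RNA per cell and fewer cells with intact RNA.

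Among the factor genes, 1 fell and 0 rose in aal1-pOE, and the other 30 were not called. The gene that fell was tif1, which encodes the helicase eIF4A. Calls were made with edgeR's quasi-likelihood test after TMM scaling, at a Benjamini-Hochberg adjusted p of at most 0.05 over all genes tested. The single fallen gene is 3.23% of the list, where 4.64% of all genes tested fell and 1.36% rose. At an unadjusted p under 0.05, 12 factor genes were lower and 1 was higher, where 12.5% of all genes tested were lower and 14.6% higher. No factor gene rose in edgeR's likelihood ratio test, in DESeq2 or in limma-voom either, where 6.82%, 6.78% and 0.326% of all genes did. In these tests 6, 6 and 1 factor genes fell, beside 8.11%, 8.78% and 4.04% of all genes.

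All 31 genes passed the filter on low counts, with counts in a library from 80 for tif310 to 25112 for tif471. The log2FC was below 0 in 25 genes and above 0 in 6, and its median was -0.51. With library totals alone the split turned to 10 below 0 and 21 above, with a median of 0.16, against the all-gene median of 0.80. The median of the factor genes thus lay below that of all genes on both scales. Cytosolic ribosomal protein genes had a median of -2.25 with TMM and -1.55 with library totals.

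**Figure D1:**
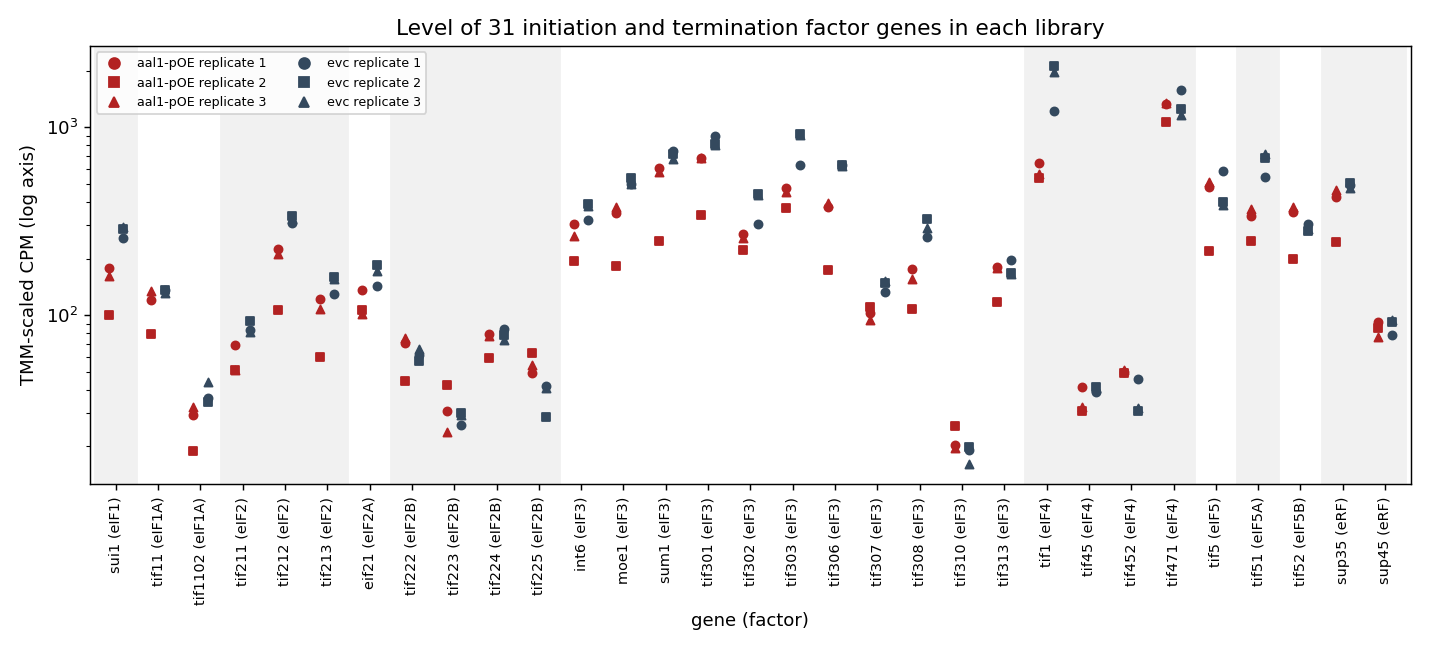
TMM-scaled CPM (log axis) of each of the 31 factor genes in each library, with aal1-pOE in red, evc in blue and a marker shape for each replicate. In tif1 the 3 aal1-pOE libraries lie between 534 and 648 and the 3 evc libraries between 1224 and 2125, while the groups overlap in tif471.

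In TMM-scaled CPM, 18 genes (58.1%) were lower in every aal1-pOE library than in every evc library and 2 (6.45%) were higher, where 19.1% of all genes tested were lower without overlap and 18.4% higher. From library totals, 6 genes (19.4%) were lower without overlap and 13 (41.9%) higher, where 6.29% of all genes were lower and 47.2% higher. The 6 that stayed lower on both scales were tif1, sui1, tif51, tif212, tif306 and tif308. The 2 that were higher on both were tif225 and tif452. The other genes higher without overlap from library totals were tif11, tif45, tif471, tif222, tif223, tif224, tif310, tif313, tif52, sup35 and sup45.

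Replicate 2 of aal1-pOE held much of the spread. Its TMM factor, by which its scaled values are divided, was 1.80, against 1.07 and 1.04 in replicates 1 and 3. In TMM-scaled CPM this library was the lowest of the 3 aal1-pOE libraries in 25 of the 31 factor genes (80.6%), against 42.6% of all genes tested. Relative to the evc mean, the median of the factor genes was -0.25, -0.80 and -0.30 (log2) in aal1-pOE replicates 1, 2 and 3, and between -0.04 and 0.04 in evc. From library totals the same library was the highest in 21 factor genes (67.7%), against 75.9% of all genes.

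With aal1-pOE replicate 2 and evc replicate 1 both left out, 14 factor genes fell (45.2%) and 4 rose (12.9%), where 20.2% of all genes tested fell and 19.4% rose. That fit has 2 libraries in each group, and leaving out these libraries together made calls far more frequent across the whole table. The libraries left out were picked from these same counts, so its calls are no independent support for those of the fit of all libraries. The 14 were tif1, sui1, tif51, eif21, the eIF2 genes tif211, tif212 and tif213, and the eIF3 genes tif302, tif303, moe1, int6, tif306, tif307 and tif308. The 4 were tif5, tif52, tif225 and tif452. Their median log2FC over all 31 was -0.24, against 0.02 for all genes.

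**Figure D2:**
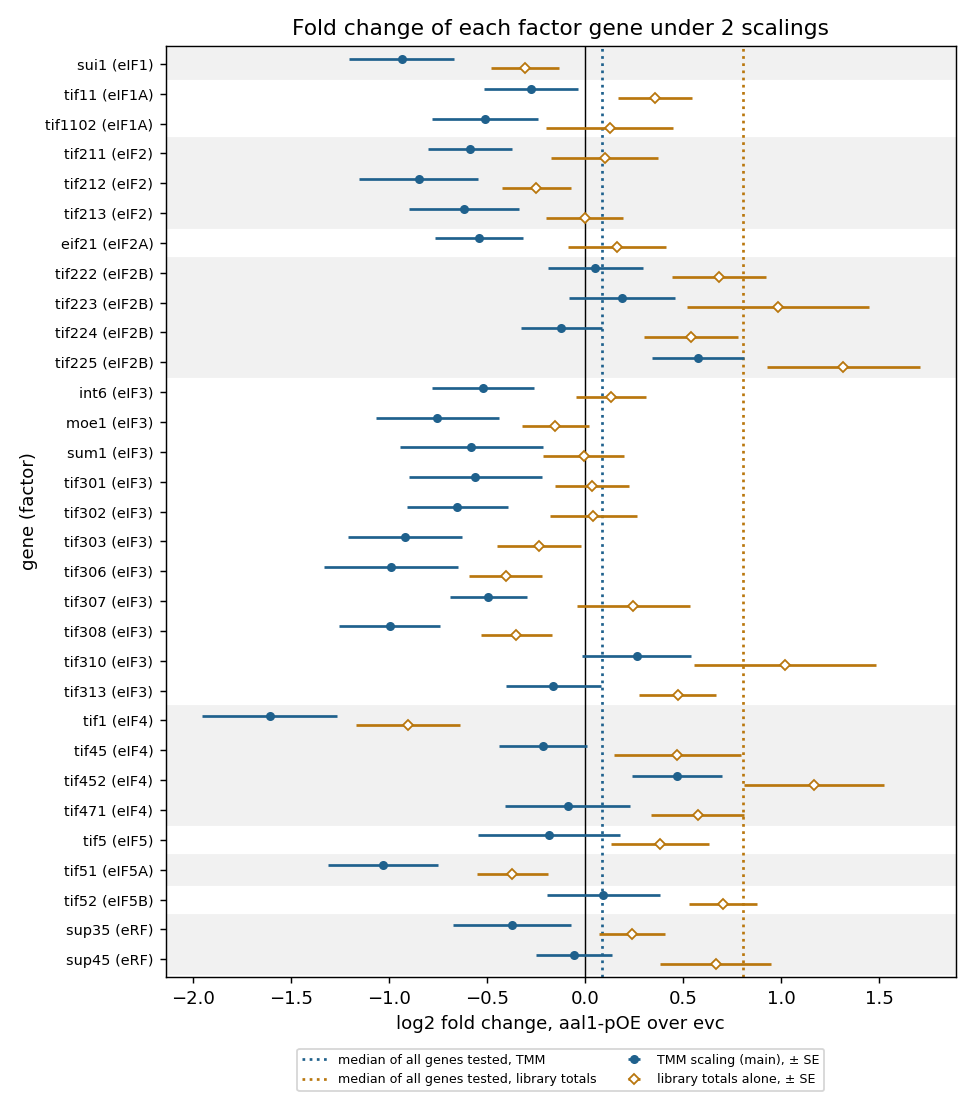
Log2FC (aal1-pOE over evc) ± SE of each factor gene with TMM scaling (filled circles) and with library totals alone (open diamonds), with dotted lines at the median of all genes tested on each scale. With TMM 25 of 31 points lie below 0 and with library totals 10 do, and tif1 is farthest to the left on both.

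The factors that act at the cap (eIF4) held the gene that fell. The level of tif1 was 648, 534 and 561 TMM-scaled CPM in replicates 1, 2 and 3 of aal1-pOE against 1224, 2125 and 1964 in those of evc. Each aal1-pOE library was below each evc library, and evc replicate 1 was the lowest of its group. Its log2FC was -1.61 ± 0.34 (SE; adjusted p = 0.0262, edgeR, n = 3 per group), and with library totals alone it was -0.90 ± 0.26 (adjusted p = 0.0541), which is not called. The call was also lost in fits that left out replicate 1 or 3 of aal1-pOE (adjusted p = 0.0799 and 0.0606, edgeR) or replicate 2 or 3 of evc (0.173 and 0.162), while the log2FC over all 17 alternatives ran from -1.81 to -0.90. With the 2 libraries that stood apart both left out it came to -1.76 ± 0.11 (adjusted p = 1.84e-06, edgeR). That choice was made from these same counts and took out the evc library with the lowest tif1. This value is therefore no added support for the call.

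The tif1 gene (SPAC1006.07) lies on the plus strand of chromosome I from 5085530 to 5087031 in RefSeq assembly ASM294v3. No stretch of 50 bases of its exons occurs elsewhere in that genome. The same held for 30 of the 31 genes, and in tif52 it failed for 4 of 3517 stretches. Mapped reads were shorter after clipping, and shorter stretches or inexact matches were not checked. The eIF4G gene tif471 was measured at 1338, 1062 and 1353 TMM-scaled CPM in aal1-pOE against 1571, 1247 and 1170 in evc. Its groups overlapped, with a log2FC of -0.09 ± 0.32 (SE; adjusted p = 0.870, edgeR) that became 0.57 with library totals.

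A ratio of 2 genes within a library does not depend on how libraries are scaled. Per kb of exonic length, tif1 had 1.49, 1.55 and 1.28 times the counts of tif471 in aal1-pOE against 2.40, 5.25 and 5.17 times in evc. The groups did not overlap. Over tif45, the gene of the cap-binding protein eIF4E, the ratio of tif1 was 11.4, 12.7 and 12.6 in aal1-pOE against 22.7, 37.4 and 35.1 in evc. As a share of all counts of the 31 genes, tif1 took 7.68%, 9.70% and 6.77% in aal1-pOE against 11.3%, 17.8% and 17.1% in evc.

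The 2 eIF4E genes differed in sign with TMM. The level of tif45 was 41.3, 30.7 and 32.5 TMM-scaled CPM in aal1-pOE against 39.1, 41.3 and 40.6 in evc, which overlapped. The other, tif452, which RefSeq describes as a second isoform and a stress response factor, was measured at 50.0, 48.9 and 51.1 in aal1-pOE against 45.4, 30.7 and 32.0 in evc. Every aal1-pOE library was above every evc library, by the least against evc replicate 1. The log2FC was -0.21 ± 0.22 (SE; adjusted p = 0.538, edgeR) for tif45 and 0.47 ± 0.23 (adjusted p = 0.218) for tif452. With library totals alone these were 0.47 and 1.17, so tif45 changed sign, and neither gene was called.

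Per kb, tif452 had 1.22, 1.62 and 1.59 times the counts of tif45 in aal1-pOE against 1.17, 0.754 and 0.797 times in evc. In aal1-pOE the isoform gene thus exceeded tif45 in all 3 libraries and in evc in replicate 1 alone. Neither this ratio nor any other given here was tested. The difference between the groups was small in replicate 1 of each.

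**Figure D3:**
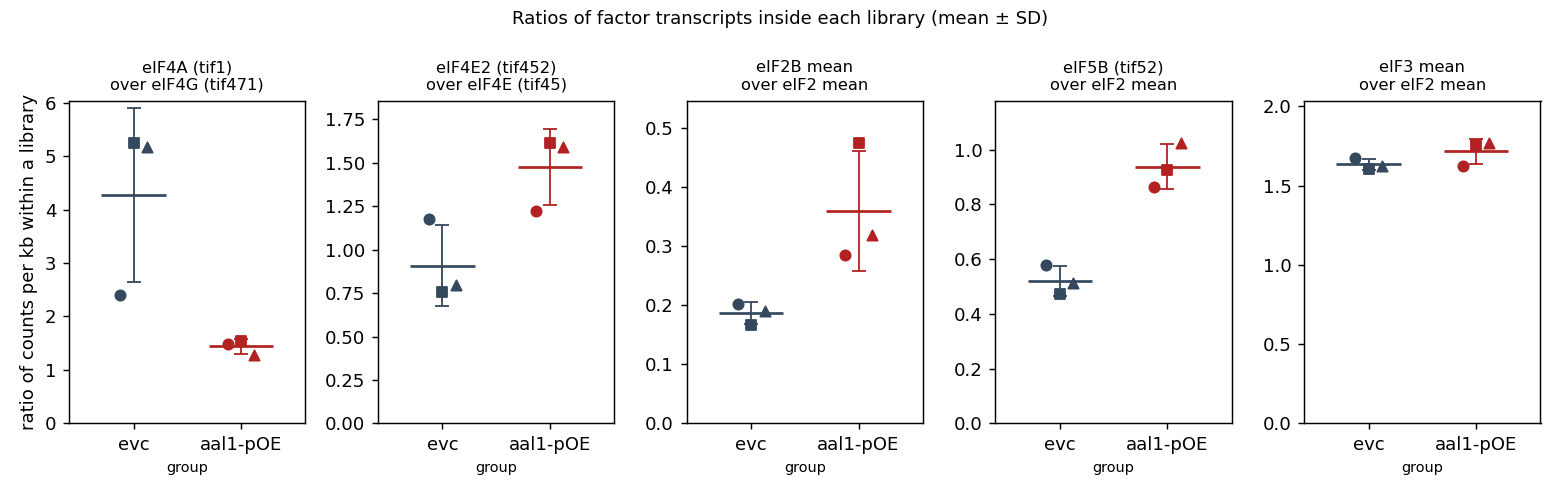
Ratios of counts per kb of exonic length inside each library (points, 1 shape for each replicate), with group means (horizontal bars) and SD (error bars), n = 3 per group. The eIF4A to eIF4G ratio is 1.44 ± 0.143 in aal1-pOE and 4.27 ± 1.62 in evc, the eIF4E2 to eIF4E, eIF2B to eIF2 and eIF5B to eIF2 ratios do not overlap and are higher in aal1-pOE, and the eIF3 to eIF2 ratio overlaps.

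The promoters of tif1 and 2 other factor genes hold a letter string that marks most ribosomal protein promoters of this yeast, the core of the HomolD box, and they are shown because tif1 was the factor gene that fell. The search covered 250 bases before to 50 bases after each RefSeq gene start, on both strands, for CAGTCAC (reverse complement GTGACTG) and for the longer CAGTCACA (reverse complement TGTGACTG), which contains it. The shorter string was found in 3 of 31 factor genes (9.68%), in 129 of 141 cytosolic ribosomal protein genes (91.5%) and in 241 of 5110 protein-coding genes (4.72%). The longer string was found in tif1 alone of the factor genes, in 89 ribosomal protein genes (63.1%) and in 137 of all (2.68%). The ribosomal protein genes are part of the protein-coding genes and hold most of the matches of either string. A match is a description of letters and not of a bound site. The windows below are from RefSeq assembly ASM294v3, 5′ to 3′ on the strand of the gene, with the string in capitals. They span chrI:5085466-5085494 (plus strand, 53 bases before the start of tif1), chrI:4310518-4310546 (plus strand, 32 before that of tif302) and chrI:541639-541667 (minus strand, 58 before that of tif5).
tif1: ttttcaggtgtGTGACTGtgtgttagaga
tif302: cgatgtcccccCAGTCACtgggtgaagaa
tif5: tcttagggcacGTGACTGgagtgggttaa
The log2FC values of these 3 genes were -1.61, -0.65 and -0.18 with TMM, of which the last 2 were not called.

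Among the factors that prepare the small subunit, the gene of eIF1, sui1, which guards the choice of the start codon, was measured at 178, 99.8 and 162 TMM-scaled CPM in aal1-pOE against 257, 287 and 296 in evc. No aal1-pOE library reached an evc library on either scale. Its log2FC was -0.93 ± 0.27 (SE; adjusted p = 0.0677, edgeR), and -0.31 with library totals.

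The 2 eIF1A genes differed less. The eIF1A gene tif11 had 119.9, 79.2 and 133 TMM-scaled CPM in aal1-pOE against 135, 137 and 130.4 in evc, and its log2FC was -0.28 ± 0.24 (SE; adjusted p = 0.454, edgeR). The eIF1A-like gene tif1102 had 29.3, 19.0 and 32.3 in aal1-pOE against 36.1, 34.3 and 43.9 in evc. Its log2FC was -0.51 ± 0.27 (SE; adjusted p = 0.250, edgeR). With library totals both changed sign, to 0.36 and 0.13, and neither was called under any of the 17 alternatives.

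The scaffold of the initiation complex, eIF3, was covered by 11 genes. None was called with TMM, 10 had a log2FC below 0, and 9 were lower in aal1-pOE without overlap, where 19.1% of all genes tested were. With library totals alone 5 were below 0 and 6 above, and the eIF3 median moved from -0.58 to 0.04. Without aal1-pOE replicate 2 and evc replicate 1, 7 of the 11 fell and 0 rose, where 20.2% of all genes tested fell and 19.4% rose, and the eIF3 median was -0.51.

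The smallest p of the complex was that of tif308 (eIF3h), with 176, 107 and 155 TMM-scaled CPM in aal1-pOE against 259, 325 and 289.9 in evc. Its log2FC was -0.996 ± 0.26 (SE; adjusted p = 0.0531, edgeR), and -0.35 with library totals. The eIF3f gene tif306 had 375, 175 and 398 in aal1-pOE against 630.1, 628 and 621 in evc. Of the eIF3 genes, tif308 and tif306 alone were also lower without overlap from library totals. The log2FC of tif306 was -0.99 ± 0.34 (SE; adjusted p = 0.107, edgeR). Without the 2 libraries that stood apart it became -0.69 ± 0.10 (adjusted p = 0.000470, edgeR), in a fit where 20.2% of all genes tested fell. Those libraries were picked from these same counts.

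The eIF3c gene tif303, part of the core that contacts eIF1 and eIF5 in budding yeast, had 476, 373 and 452 TMM-scaled CPM in aal1-pOE against 632, 919.7 and 905 in evc. Here the spread lay in evc, where replicate 1 was lowest. Its log2FC was -0.92 ± 0.29 (SE; adjusted p = 0.0875, edgeR). The eIF3b gene tif302 had 271, 223 and 258 in aal1-pOE against 305, 442 and 434 in evc, with a log2FC of -0.65 ± 0.26 (adjusted p = 0.145, edgeR) that became 0.04 with library totals. Replicate 1 was the lowest evc library in tif303, tif302 and tif1, but the highest in other eIF3 genes, among them tif301 and sum1.

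In 3 other eIF3 genes the lowest library was aal1-pOE replicate 2 by a wide margin. The largest subunit, eIF3a (tif301), had 687, 342 and 684 TMM-scaled CPM in aal1-pOE against 903, 817 and 802 in evc. The eIF3i gene sum1 had 606, 248 and 578 in aal1-pOE against 747, 717 and 676 in evc. The eIF3d gene moe1 had 351, 183 and 375 in aal1-pOE against 497, 538 and 496 in evc. Their log2FC values were -0.56 ± 0.34, -0.58 ± 0.36 and -0.75 ± 0.31 (SE; adjusted p = 0.302, 0.316 and 0.163, edgeR), and with library totals 0.04, -0.01 and -0.15.

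The eIF3e gene int6 had 307, 194 and 265 TMM-scaled CPM in aal1-pOE against 322, 392 and 382 in evc, and the eIF3g gene tif307 had 103, 110.5 and 94.1 against 133, 148 and 152. Both had separate groups, with log2FC values of -0.52 ± 0.26 and -0.49 ± 0.20 (SE; adjusted p = 0.227 and 0.149, edgeR) that turned to 0.13 and 0.25 with library totals. With TMM the 2 eIF3 genes with overlapping groups were those of eIF3m (tif313, log2FC -0.16 ± 0.24) and eIF3j (tif310, 0.26 ± 0.28). Both were higher without overlap from library totals, as were 47.2% of all genes tested. With TMM tif310 was the only eIF3 gene above 0, and it was the least abundant, at 15.6 TMM-scaled CPM per kb in evc.

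**Figure D4:**
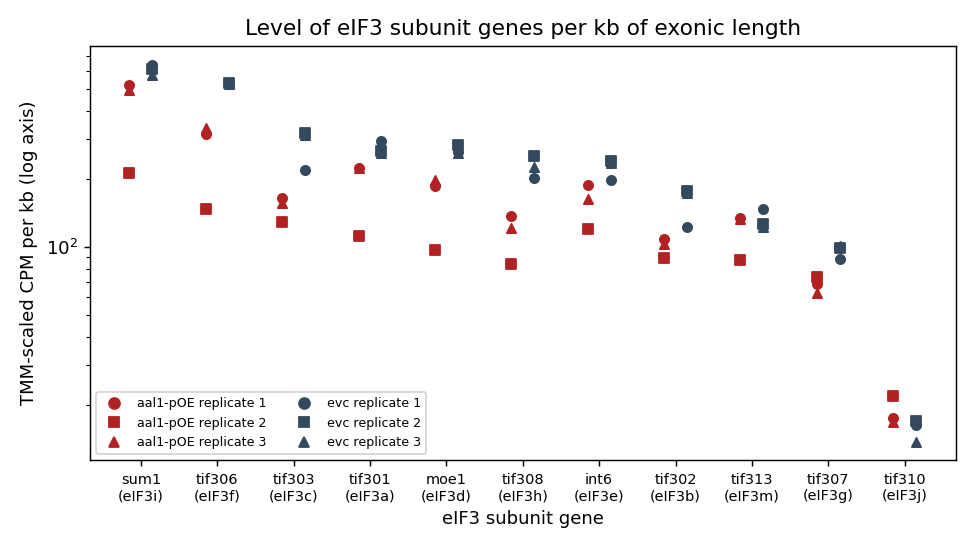
TMM-scaled CPM per kb of exonic length (log axis) of the 11 eIF3 genes in each library, ordered by their mean level in evc, with aal1-pOE in red and evc in blue. In evc the levels run from 609.6 for sum1 to 15.6 for tif310, and aal1-pOE replicate 2 (red squares) is lowest in most genes but highest of all in tif310.

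Subunits of eIF3 thus had unequal transcript levels. Per kb in evc, sum1 had 609.6 ± 30.2 TMM-scaled CPM (SD, n = 3) and tif306 had 527 ± 3.87, and their ranges of 578 to 638 and 523 to 530.0 did not overlap. The next genes, tif303 at 283 ± 56.0, tif301 at 273 ± 17.8 and moe1 at 268 ± 12.7, could not be ordered beyond their spread. The mean over eIF3 subunits was 1.63, 1.76 and 1.77 times the mean over eIF2 subunits in aal1-pOE against 1.67, 1.60 and 1.63 times in evc, with overlapping groups.

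The 3 genes of eIF2 were all lower in TMM-scaled CPM without overlap, as were 19.1% of all genes tested, and 0 of 3 were called. The alpha subunit gene tif211, whose protein carries the regulatory phosphorylation site, had 69.6, 50.7 and 51.1 in aal1-pOE against 83.5, 92.6 and 81.1 in evc. Its log2FC was -0.59 ± 0.21 (SE; adjusted p = 0.12, edgeR), and 0.10 with library totals, where the groups overlapped. The beta subunit gene tif212 had 224, 107 and 211 in aal1-pOE against 309.8, 339 and 326 in evc, with -0.85 ± 0.30 (adjusted p = 0.117, edgeR), and it was the only eIF2 gene apart on both scales. A non-coding gene overlaps tif212 on the same strand, and reads that fall in both are left out of the count by default.

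The gamma subunit gene tif213, which encodes the GTPase, had 122, 60.0 and 108 TMM-scaled CPM in aal1-pOE against 129, 160.2 and 155 in evc. The log2FC of tif213 was -0.62 ± 0.28 (SE; adjusted p = 0.192, edgeR), and with library totals it was -0.0016. The gene eif21, of the separate factor eIF2A, which can also deliver initiator tRNA, had 136, 106 and 101 in aal1-pOE against 143, 184 and 172 in evc. It had a log2FC of -0.54 ± 0.22 (SE; adjusted p = 0.158, edgeR) that became 0.16 with library totals.

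The exchange factor eIF2B departed from this pattern. Of its 4 genes in the list, 3 had a log2FC above 0 and 1 below, with a median of 0.12 that became 0.83 with library totals. The medians of all genes tested were 0.08 and 0.80, so eIF2B lay near a typical gene on both scales. The epsilon subunit gene tif225, which encodes the catalytic subunit, had 49.2, 63.0 and 54.4 TMM-scaled CPM in aal1-pOE against 42.0, 28.7 and 41.0 in evc. Every aal1-pOE library was above every evc library on both scales. With TMM 18.4% of all genes tested were so placed, and from library totals 47.2% were, with all 4 eIF2B genes among them. For tif225 the log2FC was 0.58 ± 0.23 (SE; unadjusted p = 0.0355 and adjusted p = 0.156, edgeR), and 1.32 ± 0.39 with library totals (adjusted p = 0.0545). This was the 1 gene that was higher at an unadjusted p under 0.05.

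The delta subunit gene tif224 had 79.6, 59.0 and 77.7 TMM-scaled CPM in aal1-pOE against 83.8, 78.1 and 73.2 in evc, and its groups overlapped. Its log2FC was -0.12 ± 0.21 (SE; adjusted p = 0.713, edgeR), and 0.54 with library totals. The beta and gamma subunit genes tif222 and tif223 had 0.05 ± 0.24 and 0.19 ± 0.27, and 0.68 and 0.99 with library totals. Removal of aal1-pOE replicate 2 turned the sign of tif223, which that library held at 42.2 against 30.7 and 23.8 in the other 2.

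Within libraries, the mean of the 4 eIF2B genes per kb was 0.285, 0.476 and 0.319 times that of the 3 eIF2 genes in aal1-pOE against 0.203, 0.167 and 0.190 times in evc. The groups did not overlap, and aal1-pOE replicate 2 was the highest. With TMM the median log2FC was 0.12 for eIF2B and -0.62 for eIF2, against 0.08 for all genes tested. The alpha subunit of eIF2B is encoded by gcn3, whose standard name falls outside the rule for the list. It was not called.

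Of the factors that act at subunit joining, the eIF5 gene tif5, whose protein makes eIF2 hydrolyse its GTP, overlapped between the groups. It had 479.8, 219 and 509 TMM-scaled CPM in aal1-pOE against 585, 402 and 383 in evc, with a log2FC of -0.18 ± 0.36 (SE; adjusted p = 0.752, edgeR). Its sign changed with library totals (0.38) and without the 2 libraries that stood apart. In the latter fit it was called higher (0.33 ± 0.10, adjusted p = 0.0230, edgeR), as were 19.4% of all genes tested. That fit took out the lowest aal1-pOE library and the highest evc library of tif5, a choice made from these same counts. A neighbouring gene overlaps tif5 on the same strand.

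The eIF5B gene tif52, whose protein is the GTPase that joins the subunits, had 354, 199.8 and 376 TMM-scaled CPM in aal1-pOE against 305, 279 and 286 in evc. Replicate 2 of aal1-pOE lay below evc and the other 2 above. The log2FC of tif52 was 0.09 ± 0.29 (SE; adjusted p = 0.842, edgeR). With library totals it was 0.70 ± 0.17 (adjusted p = 0.0466), the single call of the list on that scale, where 8.88% of all genes tested were called higher and 2.64% lower, and where the all-gene median was 0.80. Over the eIF2 mean, tif52 stood at 0.861, 0.924 and 1.03 per kb in aal1-pOE against 0.580, 0.471 and 0.512 in evc, without overlap. With TMM tif52 lay near the all-gene median of 0.08, while the eIF2 genes had a median of -0.62. The eIF2B ratio has the same denominator.

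The eIF5A gene tif51, whose protein helps ribosomes past difficult stretches, had 339, 248 and 368 TMM-scaled CPM in aal1-pOE against 546, 683 and 721 in evc. The groups stayed apart on both scales. Its log2FC was -1.03 ± 0.28 (SE; adjusted p = 0.0607, edgeR), and -0.37 with library totals. It passed the threshold in 5 of the 17 alternatives, as did sui1, while tif308 passed in 6 and tif303 and tif306 in 4 each. Its paralog tif512, outside the list, fell by 2.62 on the log2 scale (SE 0.38; adjusted p = 0.00682, edgeR). Per kb, tif51 had 1.09, 0.878 and 1.57 times the counts of tif512 in aal1-pOE against 0.592, 0.331 and 0.338 times in evc. A non-coding gene overlaps tif51 on the same strand.

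The 2 release factor genes were not called. The eRF3 gene sup35 had 428, 245 and 465 TMM-scaled CPM in aal1-pOE against 494, 505 and 473 in evc, lower without overlap by a narrow gap. From library totals its groups were apart in the other direction, at 459.5, 439.7 and 482 CPM against 419, 385 and 365. The sign thus followed the scaling, and 47.2% of all genes tested were higher without overlap from library totals. The log2FC was -0.37 ± 0.30 (SE; adjusted p = 0.424, edgeR) with TMM and 0.24 with library totals. Both values lay below the median of all genes tested, which was 0.08 with TMM and 0.80 with library totals.

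The eRF1 gene sup45 had 91.7, 85.5 and 76.6 TMM-scaled CPM in aal1-pOE against 78.8, 91.3 and 94.0 in evc. These values overlapped, with a log2FC of -0.06 ± 0.20 (SE; adjusted p = 0.863, edgeR) that was 0.67 with library totals. Genes next to sup45 overlap it on the same strand. Per kb, sup35 had 3.61, 2.22 and 4.70 times the counts of sup45 in aal1-pOE against 4.85, 4.28 and 3.90 times in evc, with overlap.

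By level, tif1 led the list in evc at 1179 ± 320 TMM-scaled CPM per kb (SD, n = 3), with a range of 815 to 1415. After it came tif51 at 615 ± 86.7, sum1 at 609.6 ± 30.2, tif306 at 527 ± 3.87 and sui1 at 515 ± 37.6. The range of tif51, 517 to 682, overlapped those of the genes after it down to sui1. In aal1-pOE sum1 took the first place at 408 ± 170, and tif1 the second at 387 ± 39.6, with overlapping ranges. At the low end in evc stood tif223 at 17.6 ± 1.33, tif225 at 16.8 ± 3.34 and tif310 at 15.6 ± 1.65, which could not be ordered beyond their spread.

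Summed, the 31 genes took 0.917 ± 0.0664% of library counts in aal1-pOE and 0.907 ± 0.0170% in evc (3 libraries each, ± SD). Without tif1 the shares were 0.843 ± 0.0471% and 0.768 ± 0.0431%, and tif1 alone took 0.0745 ± 0.0194% and 0.139 ± 0.0310%. Against the counts of cytosolic ribosomal protein genes, the factor genes other than tif1 stood at 25.9%, 22.8% and 28.3% in aal1-pOE against 11.8%, 6.56% and 6.33% in evc. For tif1 this ratio was 2.16%, 2.45% and 2.05% in aal1-pOE against 1.50%, 1.42% and 1.30% in evc. Both ratios were higher in every aal1-pOE library, so that tif1 held a smaller share of the factor counts but a larger one beside the ribosomal protein counts.

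Of 26 other genes of the pathway, 4 fell and 0 rose, where 4.64% of all genes tested fell and 1.36% rose. All 4 were among the 8 genes of elongation. Besides tif512 these were the eEF2 genes eft201 (log2FC -1.98 ± 0.35 SE) and eft202 (-2.83 ± 0.42) and the eEF1A gene tef101 (-2.20 ± 0.47). Copies of eEF2 and of eEF1A share sequence, so their separate counts are uncertain. The 8 elongation genes had a median of -1.85, against -0.51 for the 31 factor genes. Further initiation genes were gcn3, the eIF4B gene sce3, the poly(A)-binding protein gene pabp and the helicase gene sum3. Among these 4, 6 genes of ribosome recycling and subunit release, and 8 genes of signalling, 0 were called in either direction by edgeR.

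Of the 3 genes of kinases that phosphorylate the alpha subunit of eIF2, named after their values were seen, 0 were called. The gene hri1 had 142, 151 and 168 TMM-scaled CPM in aal1-pOE against 107, 56.8 and 42.9 in evc. Its log2FC was 1.16 ± 0.32 (SE; adjusted p = 0.0648, edgeR) and 1.84 with library totals (adjusted p = 0.0399). Per kb, hri1 had 0.852, 1.24 and 1.37 times the counts of its target's gene tif211 in aal1-pOE against 0.534, 0.256 and 0.221 times in evc, without overlap. The other kinase genes, gcn2 and hri2, overlapped between the groups, with log2FC values of -0.06 ± 0.25 and 0.13 ± 0.59 (SE; adjusted p = 0.886 and 0.892, edgeR). With the 2 libraries that stood apart left out, hri1 rose (1.64 ± 0.16), hri2 fell (-1.18 ± 0.28, adjusted p = 0.00860, edgeR) and gcn2 was not called (-0.31 ± 0.14, adjusted p = 0.115). In that fit 19.4% of all genes tested rose and 20.2% fell. It took out the evc library with the highest hri1 and the aal1-pOE library with the highest hri2, a choice made from these same counts.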

How the data were processed

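The authors depleted rRNA, built stranded libraries with molecular indices, mapped the reads (STAR 2.6.1a, PomBase genome) and assigned them to genes on the reverse strand (HTSeq 0.12.3). The deposited table gave raw read counts, neither normalised nor pooled. Whether duplicates were collapsed and which genome build was used is not given in the sources used here, so the spread may include amplification noise. Names, lengths and coordinates were those of RefSeq ASM294v3, which matched 6805 of 6952 identifiers and all 31 factor genes.

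With edgeR 4.0.16 (R 4.3.3), genes were tested if at least 3 libraries exceeded 1 CPM, 5823 in all. TMM factors, a quasi-likelihood fit with strain as its only term and Benjamini-Hochberg adjustment gave the calls, at an adjusted p no higher than 0.05. SEs were obtained by dividing the size of the log2FC by the square root of F. The fit was tested on simulated data. Alternatives were DESeq2 size factors, library totals, TMM factors without ribosomal protein genes, protein-coding genes alone, no filter, 10 CPM as the filter, the likelihood ratio test, DESeq2 1.42.0, limma-voom (limma 3.58.1), a replicate block and fits without libraries. Values in every library are given for factor genes that were called or did not overlap in TMM-scaled CPM. The same holds for those with the smallest p or highest TMM-scaled CPM in a complex. It also holds for tif45, tif452, tif471, tif211, sup45 and sup35. Members, lists and alternatives were chosen with earlier results of these data known.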

Additional observations from a re-analysis of the deposited data

How the results depend on the processing

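Across the alternatives for single factor genes, 451 values kept their direction and their side of the threshold, 37 passed it anew, 6 lost it (all tif1) and 34 changed sign. With library totals alone 671 genes of the table were called, the median of the factor genes was 0.16, and the sign turned in tif45 (0.47), tif313 (0.47), tif471 (0.57), sup45 (0.67), tif224 (0.54), tif302 (0.044), tif5 (0.38), tif211 (0.10), tif1102 (0.13), tif301 (0.037), tif307 (0.25), tif11 (0.36), eif21 (0.16), int6 (0.13) and sup35 (0.24). The count of factor genes called was 2 with protein-coding genes alone, where 309 of 4920 genes tested were called. It was 4 with the filter of 10 CPM (399 of 4316), where sup45 was at 0.014. The likelihood ratio test called 6 (869 genes in all) and DESeq2 called 6 (906 in all). It was 1 with DESeq2 size factors (359 in all), without the filter (349), in limma-voom (254) and with TMM factors without ribosomal protein genes (357). A scaling by the factor genes other than tif1, chosen after seeing the data, called 714 genes and gave tif1 at -1.06. Why the counts of calls moved was not tested.

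Leaving out libraries, 82 to 2216 genes were called in all and 0 to 18 factor genes. The fit that dropped replicate 2 of aal1-pOE called 7, with 770 of 5699 genes tested called in all. The one that dropped replicate 1 of evc as well called 18, with 2216 of 5604 in all. In these fits the sign turned in tif313 (-0.25 to 0.11), tif471 (-0.16 to 0.16), sup45 (-0.13 to 0.011), tif224 (-0.19 to 0.060), tif5 (-0.38 to 0.33), tif222 (-0.083 to 0.27), tif223 (-0.11 to 0.37) and tif52 (-0.065 to 0.37), genes near 0 in the fit of all libraries.

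The replicate numbers did not pair the libraries, since the deviations of same-numbered libraries correlated at 0.033 or less, although 5 of 6 libraries correlated best with their own number. With the replicate block 630 genes were called, of which 0 were factor genes, and tif1 was at -1.58 (adjusted p = 0.0535, edgeR). Per kb of coding instead of exonic length, tif1 kept place 1 in evc, while tif471 moved from place 7 to 9, sui1 from 5 to 3 and tif310 from 31 to 29. Low counts limit tif310, tif223 and tif225 most.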
